A study of Homo sapiens with 12 samples.

Results

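Prostanoids are lipid mediators made from arachidonate, and 10 human genes of their synthesis, sensing and removal are described here, of 18417 genes measured. The genes were given as a list that was chosen with earlier results of these data known. They are the phospholipase gene PLA2G4A, the cyclooxygenase genes PTGS1 and PTGS2, and the terminal synthase genes PTGES, PTGES2, PTGIS and TBXAS1. The others are the receptor genes PTGER2 and PTGER4, and the degradation gene HPGD. All 10 were found, each with 1 probe set that carried 1 gene symbol. RNA came from EA.hy926, an established human hybrid of umbilical vein endothelium and A549, a lung carcinoma line, so every group shares this hybrid background. Lo PMX cells had been adapted to medium with 23 nM folic acid and then exposed at confluence to 0.5 uM pemetrexed (PMX), an antifolate drug, for 48 h. Lo control cells were adapted to the same 23 nM folic acid and were not treated. Hi PMX cells had been kept in parallel at 9 uM folic acid and received the same 0.5 uM for 48 h, and Hi control cells were kept at 9 uM and not treated. Each of the 4 groups held 3 biological replicates with 1 array each, 12 arrays in all. All cultures were grown with 10% fetal calf serum, and 24 h is listed for the medium change of every sample. Lo cells were 1 separately adapted culture of the line, so a difference between Lo and Hi also holds any other difference between the cultures.

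Cytosolic phospholipase A2, the product of PLA2G4A, cuts arachidonate from membrane phospholipids. The cyclooxygenases turn arachidonate into prostaglandin H2: PTGS1 is the form that most cells make at a steady level, and PTGS2 is the inducible form, switched on by cytokines and growth factors. Terminal synthases then set the product. PTGES and PTGES2 make prostaglandin E2, PTGIS makes prostacyclin, the vasodilator and platelet inhibitor that endothelium is known for, and TBXAS1 makes thromboxane A2, the platelet activator and vasoconstrictor. PTGER2 and PTGER4 encode receptors of prostaglandin E2 that raise cyclic AMP, and HPGD encodes the dehydrogenase that inactivates prostaglandins. All of these act as proteins and lipids, of which the arrays measured neither.

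Values are log2 expression values per gene, and differences between groups are log2 differences with the standard error (SE) of a linear model fitted to all genes with limma. A gene passed the test, and is said to have risen or fallen, at a Benjamini-Hochberg adjusted p under 0.05 over all 18417 genes. Values of different genes are not compared as levels, because probe sets differ in brightness. The array medians lay between 7.24 and 7.33. A pair of control arrays stood apart, those labelled Lo control replicate 3 and Hi control replicate 3. The means of Lo PMX and Hi PMX cells use neither array, though both arrays enter the test through the shared spread. Among 4107 genes that passed between these cells with all 12 arrays, Lo control replicate 3 was nearer to the other Hi controls in 78.6%. Hi control replicate 3 was nearer to the other Lo controls in 75.8% of them. Of the 10 genes described here, 4 had both arrays on the other side in this way: PTGS2, PTGIS, TBXAS1 and PTGER4. For TBXAS1 the sides hardly differed, as the other Lo controls averaged 8.23 and the other Hi controls 8.26. Its Lo control replicate 3 (8.29) lay above both means and its Hi control replicate 3 (8.09) below both. Both arrays kept their labels, and each result is given with all 12 arrays and with the 10 left without these controls. The cell line was set against marker lists, with no detection limit known, so that a range over the arrays is given and presence is not called. The 12 endothelial markers ran from EMCN (4.97 to 7.10), VWF (6.68 to 9.71) and CLDN5 (7.55 to 7.97) to CDH5 (11.98 to 12.86) and PECAM1 (12.21 to 13.44). The 10 epithelial markers ran from EPCAM (5.30 to 6.08), CDH1 (5.45 to 5.89) and NKX2-1 (5.51 to 5.79) to KRT8 (11.55 to 12.07) and KRT7 (11.82 to 12.45). The 10 fibroblast and smooth muscle markers ran from DCN (3.85 to 4.15) to ACTA2 (11.07 to 12.07). The 9 leukocyte and platelet markers ran from PTPRC (4.05 to 4.21) to GP9 (7.23 to 7.72) and LYZ (8.24 to 9.53).

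The 10 genes fell into those that varied widely over the arrays and those that hardly varied. PTGS2 spanned 2.24 log2 units from the lowest to the highest array and PTGIS 1.43. PLA2G4A spanned 0.85, PTGER4 0.77 and TBXAS1 0.60. The other members, PTGS1 (0.43), PTGER2 (0.39), PTGES2 (0.35), PTGES (0.30) and HPGD (0.29), were the 5 with a range under 0.5.

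**Figure D1:**
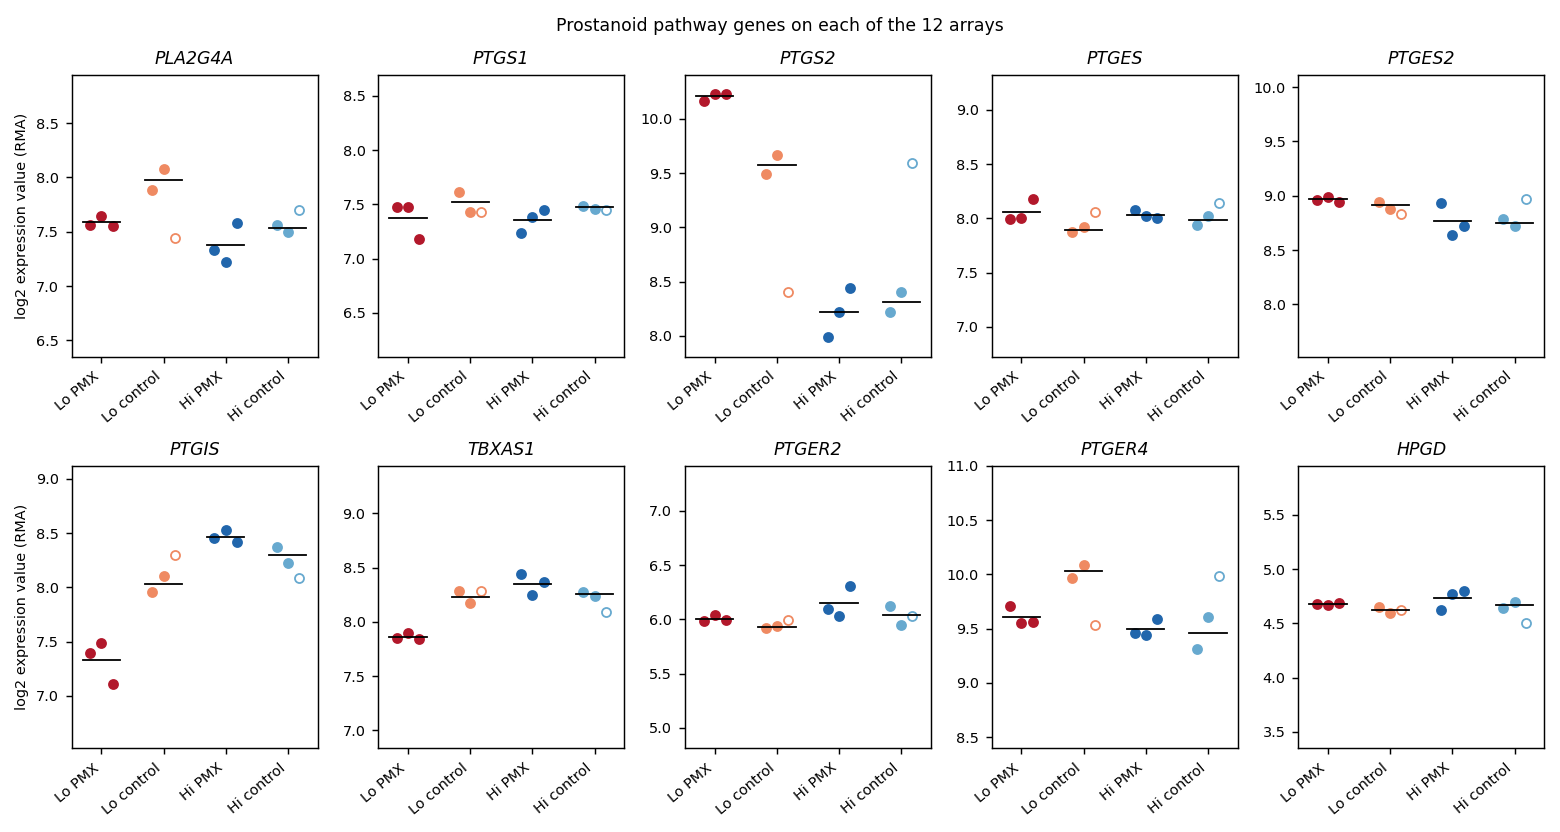
Log2 expression value (y axis) of each of the 10 genes on each of the 12 arrays by group (x axis). Filled points are arrays, open points are the 2 control arrays labelled replicate 3, black lines are means of the filled points, and every panel spans the same number of log2 units. PTGS2 lay between 10.17 and 10.23 on the Lo PMX arrays, above all other arrays, and PTGIS between 7.11 and 7.48 on them, below all other arrays.

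PTGS2, the inducible cyclooxygenase, was highest in Lo PMX cells on every array. It read 10.17, 10.23 and 10.23 in Lo PMX cells, against 9.49, 9.67 and 8.40 in Lo control cells (replicates 1, 2 and 3). It read 7.99, 8.22 and 8.44 in Hi PMX cells, against 8.22, 8.41 and 9.60 in Hi control cells. All Lo PMX arrays lay above all Lo control arrays, and the treated and control arrays of Hi cells overlapped. The array labelled Hi control replicate 3, at 9.60, lay beside the other Lo controls (mean 9.58), and that labelled Lo control replicate 3, at 8.40, beside the other Hi controls (mean 8.31).

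In the comparison of Lo PMX with Hi PMX cells, whose means hold neither of these arrays, PTGS2 averaged 10.21 ± 0.035 and 8.22 ± 0.23 (SD, n = 3 each). With the spread taken from 12 arrays the difference was 1.99 ± 0.34 log2 units, or 3.97-fold. Its 95% confidence interval was 1.25 to 2.74 (limma, Benjamini-Hochberg adjusted p = 0.00156). Under treatment PTGS2 was thus higher in low-folate cells, also with the spread taken from 10 arrays (adjusted p = 8.91e-08 in limma). Between Lo PMX and Lo control cells the difference was 1.02 ± 0.34 with all 12 arrays and did not pass (limma adjusted p = 0.0811, 95% interval 0.28 to 1.77). Without the 2 arrays PTGS2 rose in Lo PMX cells by 0.63 ± 0.12, or 1.55-fold (limma adjusted p = 0.00469). Leaving out only Hi control replicate 3, which enters this comparison through the shared spread, kept the difference at 1.02 and let it pass (limma adjusted p = 0.0176), while leaving out only Lo control replicate 3 gave 0.63 and an adjusted p of 0.289. In untreated cells the same dependence was larger. With all arrays Lo control cells averaged 9.19 ± 0.69 and Hi control cells 8.74 ± 0.75 (SD, n = 3 each), which did not pass (0.44 ± 0.34), and with 10 arrays PTGS2 was 1.26 ± 0.13 higher in Lo control cells, or 2.40-fold (limma adjusted p = 1.15e-04). Between Hi PMX and Hi control cells PTGS2 differed by -0.52 ± 0.34 with 12 arrays (95% interval -1.27 to 0.22) and by -0.10 ± 0.12 with 10 (95% interval -0.36 to 0.16), and passed in neither. With 10 arrays the group means therefore ran in the order Lo PMX (10.21), Lo control (9.58), Hi control (8.31) and Hi PMX (8.22), of which the last pair did not differ beyond its spread.

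The promoters of PTGS2, of its neighbour PLA2G4A and of PTGER4 are shown because these genes were the members higher in Lo control than in Hi control cells with 10 arrays, and that of TBXAS1 because it fell with treatment in Lo cells. They are RefSeq sequences of build GRCh38.p14, 250 bases before to 50 after the transcription start, written 5′ to 3′ on the gene's strand. They lie at chr1:186680374-186680673 (minus strand, PTGS2), chr1:186828699-186828998 (plus, PLA2G4A), chr5:40679665-40679964 (plus, PTGER4) and chr7:139829014-139829313 (plus, TBXAS1). Capitals mark matches, on either strand, to 6 motifs: an NF-kB site, a C/EBP site, a half-site of the cyclic AMP response element, an AP-1 site, a TATA box and a GC box.
PTGS2: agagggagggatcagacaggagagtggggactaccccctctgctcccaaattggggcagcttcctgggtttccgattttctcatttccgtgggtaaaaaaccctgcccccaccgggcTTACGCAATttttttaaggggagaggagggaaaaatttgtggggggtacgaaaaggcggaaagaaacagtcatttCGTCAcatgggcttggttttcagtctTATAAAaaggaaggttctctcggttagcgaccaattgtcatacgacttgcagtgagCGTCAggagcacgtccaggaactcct
PLA2G4A: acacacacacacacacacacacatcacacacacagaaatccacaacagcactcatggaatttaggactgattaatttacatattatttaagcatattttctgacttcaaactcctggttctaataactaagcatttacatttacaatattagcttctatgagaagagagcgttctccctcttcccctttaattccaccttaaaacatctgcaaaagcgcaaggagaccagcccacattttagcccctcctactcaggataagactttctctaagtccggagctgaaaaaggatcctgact
PTGER4: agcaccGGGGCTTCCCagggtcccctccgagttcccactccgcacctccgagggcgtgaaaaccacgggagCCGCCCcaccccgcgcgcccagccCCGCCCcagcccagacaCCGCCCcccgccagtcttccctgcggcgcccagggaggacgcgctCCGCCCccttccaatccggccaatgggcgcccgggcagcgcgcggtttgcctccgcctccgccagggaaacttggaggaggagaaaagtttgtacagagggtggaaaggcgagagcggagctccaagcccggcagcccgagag
TBXAS1: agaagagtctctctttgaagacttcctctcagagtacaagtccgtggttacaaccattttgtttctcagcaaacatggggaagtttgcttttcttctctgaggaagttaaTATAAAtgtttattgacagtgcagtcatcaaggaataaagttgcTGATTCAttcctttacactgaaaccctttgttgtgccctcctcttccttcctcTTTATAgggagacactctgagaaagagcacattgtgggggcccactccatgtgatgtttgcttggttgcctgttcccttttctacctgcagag

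In the PTGS2 promoter the C/EBP match lay 133 to 125 bases upstream of the start, a half-site match 58 to 54 bases upstream and the TATA box 32 to 27 bases upstream, with a further half-site 25 to 29 bases after the start. The C/EBP motif searched was TTNNGNAAT, held by 11.0% of all 35116 promoters in the table. The half-site was searched as TGACG and was held by 24.6% of the promoters. The TATA box was searched as TATAAA and was held by 11.5% of them. The PLA2G4A window held no match to the 6 motifs as searched. PTGER4 held an NF-kB match 244 to 235 bases upstream, a motif found in 11.3% of promoters. It also held GC boxes, searched as GGGCGG and found in 45.0% of promoters, starting 179, 155, 138 and 93 bases upstream. TBXAS1 held a match to the AP-1 motif TGANTCA, found in 7.71% of promoters, 96 to 90 bases upstream, and TATA box letters 140 to 135 and 43 to 38 bases upstream. Matches to different motifs did not overlap, and no other match to the 6 motifs as searched was in these windows. Each motif was searched as a fixed pattern, the NF-kB site included. A site that varies from its pattern was therefore not marked, in PTGS2 or elsewhere, and its absence is not shown. Of the 10 genes, 9 had a promoter in the table, PTGIS being the other. PTGS2 and PLA2G4A lie next to each other on chromosome 1, with 0 protein-coding genes and 1 annotated gene, the long noncoding PACERR, between them.

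PLA2G4A, which supplies the substrate, read 7.57, 7.65 and 7.55 in Lo PMX cells, against 7.88, 8.07 and 7.44 in Lo control cells. It read 7.33, 7.22 and 7.58 in Hi PMX cells, against 7.57, 7.50 and 7.70 in Hi control cells. The Lo PMX arrays lay below the first and second Lo controls and above the third. With 12 arrays no comparison of PLA2G4A passed. With 10 arrays it was 0.45 ± 0.11 higher in Lo control than in Hi control cells, or 1.36-fold (limma adjusted p = 0.0350), and it fell in Lo PMX cells relative to Lo control cells by 0.39 ± 0.10, or 1.31-fold (limma adjusted p = 0.0317). With these 10 arrays Lo control cells thus had both PLA2G4A and PTGS2 above Hi control cells, and in Lo PMX relative to Lo control cells PLA2G4A fell while PTGS2 rose.

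PTGS1, the steady cyclooxygenase, passed in no comparison with 12 or 10 arrays. It read 7.47, 7.47 and 7.18 in Lo PMX cells, against 7.61, 7.43 and 7.43 in Lo control cells, and 7.24, 7.39 and 7.45 in Hi PMX cells, against 7.48, 7.46 and 7.45 in Hi control cells. In Lo cells the groups overlapped and the difference was -0.12 ± 0.09 (limma adjusted p = 0.53). In Hi cells the treated arrays lay just under the controls without overlap, by less than their own spread, and the difference was -0.11 ± 0.09 and did not pass.

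PTGIS, the prostacyclin synthase, fell in treated low-folate cells. It read 7.39, 7.48 and 7.11 in Lo PMX cells, against 7.96, 8.10 and 8.30 in Lo control cells. It read 8.45, 8.53 and 8.42 in Hi PMX cells, against 8.37, 8.22 and 8.08 in Hi control cells. The Lo PMX arrays were the lowest of all 12 and did not overlap any group, and the Hi PMX arrays were the highest. PTGIS fell by 0.79 ± 0.11 in Lo PMX relative to Lo control cells, or 1.73-fold (limma adjusted p = 8.1e-04), and by 0.70 ± 0.11 with 10 arrays (adjusted p = 0.00123). It was lower in Lo PMX than in Hi PMX cells, at -1.14 ± 0.11 or 2.21-fold (limma adjusted p = 5.32e-05). In Hi cells the difference between treated and control arrays was 0.24 ± 0.11 with 12 arrays and 0.17 ± 0.11 with 10, and passed in neither (unadjusted p = 0.0515 with 12). In untreated cells the difference between Lo control and Hi control cells was -0.26 ± 0.12 with 10 arrays, which did not pass (limma adjusted p = 0.265). The order of the group means with 10 arrays was Hi PMX (8.47), Hi control (8.30), Lo control (8.03) and Lo PMX (7.33), and among neighbours in that order only Lo control and Lo PMX differed past the threshold.

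Some endothelial marker genes fell in the comparisons in which PTGIS fell, and with 10 arrays also between untreated cells, where PTGIS did not pass. The mean of the list over 12 genes was 9.49 to 9.59 on the Lo PMX arrays, 9.82 to 10.62 on the Lo control arrays, 10.59 to 10.76 on the Hi PMX arrays and 9.85 to 10.78 on the Hi control arrays. The highest Lo control and the lowest Hi control were the arrays labelled replicate 3. Of the 12 markers, 4 fell and 0 rose in Lo PMX relative to Lo control cells with 12 arrays, against 5.14% of all genes lower, and 6 fell and 0 rose with 10, against 5.74%. The other 8 and 6 did not pass. Relative to Hi PMX cells, 11 of 12 were lower in Lo PMX cells past the threshold with 12 arrays, against 11.0% of all genes. In untreated cells with 10 arrays, 7 of 12 were lower and 0 higher in Lo control than in Hi control cells. Of all genes 3.50% were lower there. With 12 arrays 0 of 12 passed in untreated cells, as did 0% of all genes. The VEGF receptor gene KDR ranged from 8.86 to 11.47 over the arrays. The means of the epithelial markers lay between 8.08 and 8.28 on all arrays, those of the fibroblast and smooth muscle markers between 6.96 and 7.22, and those of the leukocyte and platelet markers between 6.53 and 6.75. The part of the endothelial markers in the fall of PTGIS was not tested, and in bulk RNA fewer cells of a kind and less RNA per cell cannot be told apart.

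TBXAS1, the thromboxane synthase, fell together with PTGIS. It read 7.85, 7.90 and 7.84 in Lo PMX cells, against 8.28, 8.18 and 8.29 in Lo control cells, and 8.44, 8.25 and 8.36 in Hi PMX cells, against 8.28, 8.24 and 8.09 in Hi control cells. The Lo PMX arrays lay below the other 3 groups, which overlapped one another. TBXAS1 fell by 0.39 ± 0.07 in Lo PMX relative to Lo control cells, or 1.31-fold (limma adjusted p = 0.00556), and by 0.37 ± 0.08 with 10 arrays (adjusted p = 0.00926). It was also lower in Lo PMX than in Hi PMX cells, at -0.49 ± 0.07 or 1.40-fold (limma adjusted p = 7.66e-04). In Hi cells the difference between treated and control arrays was 0.15 ± 0.07, and in untreated cells the difference between Lo and Hi was -0.03 ± 0.09 with 10 arrays, and neither passed. The mean of the leukocyte and platelet list, cells known for thromboxane synthesis, lay between 6.58 and 6.62 on the Lo PMX arrays. On the Lo control arrays it lay between 6.58 and 6.69. Of its 9 measured genes 1 fell, 0 rose and 8 did not pass in Lo PMX relative to Lo control cells, with 12 and with 10 arrays. Of all genes 5.14% and 5.74% were lower.

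The prostaglandin E2 synthase genes stayed within narrow ranges. PTGES, the inducible form usually paired with PTGS2, read 8.0, 8.01 and 8.18 in Lo PMX cells, against 7.87, 7.92 and 8.06 in Lo control cells, and 8.07, 8.02 and 8.0 in Hi PMX cells, against 7.94, 8.03 and 8.14 in Hi control cells. With 12 arrays the groups overlapped in both kinds of cell, and the difference in Lo cells was 0.11 ± 0.08 (limma adjusted p = 0.46). With 10 arrays the Lo PMX arrays lay above the Lo controls, and the difference was 0.16 ± 0.08 and did not pass (limma adjusted p = 0.24). PTGES2 read 8.97, 8.99 and 8.94 in Lo PMX cells, against 8.93, 8.64 and 8.72 in Hi PMX cells. It read 8.95, 8.88 and 8.84 in Lo control cells, against 8.78, 8.72 and 8.97 in Hi control cells. The treated groups did not overlap, while the control groups overlapped with 12 arrays and not with 10. The difference between Lo PMX and Hi PMX cells was 0.20 ± 0.09 and did not pass (limma adjusted p = 0.126). This difference passed without Hi PMX replicate 1 (0.28, limma adjusted p = 0.0397), with arrays weighted by their quality (0.26, adjusted p = 0.0162), and with 10 arrays and the replicate number as a block (0.20 ± 0.07, adjusted p = 0.0367). Between treatments PTGES2 differed by 0.08 ± 0.09 in Lo cells and by -0.06 ± 0.09 in Hi cells.

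Of the prostaglandin E2 receptor genes, PTGER4 varied with the 2 controls and PTGER2 did not. PTGER4 read 9.71, 9.55 and 9.56 in Lo PMX cells, against 9.97, 10.08 and 9.53 in Lo control cells. It read 9.46, 9.44 and 9.59 in Hi PMX cells, against 9.32, 9.61 and 9.99 in Hi control cells. The first and second Lo controls and the array labelled Hi control replicate 3 were the highest of the 12. No comparison of PTGER4 passed with 12 arrays. With 10 arrays it was 0.56 ± 0.11 higher in Lo control than in Hi control cells, or 1.48-fold (limma adjusted p = 0.00730), and it fell in Lo PMX relative to Lo control cells by 0.42 ± 0.10, or 1.34-fold (adjusted p = 0.0162). PTGER2 lay between 5.98 and 6.04 in Lo PMX cells, between 5.92 and 6.0 in Lo control cells, between 6.04 and 6.31 in Hi PMX cells and between 5.95 and 6.13 in Hi control cells, and no comparison passed. HPGD, which degrades prostaglandins, lay between 4.67 and 4.69 in Lo PMX cells, between 4.59 and 4.65 in Lo control cells, between 4.62 and 4.80 in Hi PMX cells and between 4.50 and 4.69 in Hi control cells. Its differences were 0.06 ± 0.07 in Lo cells and 0.12 ± 0.07 in Hi cells, and neither passed.

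**Figure D2:**
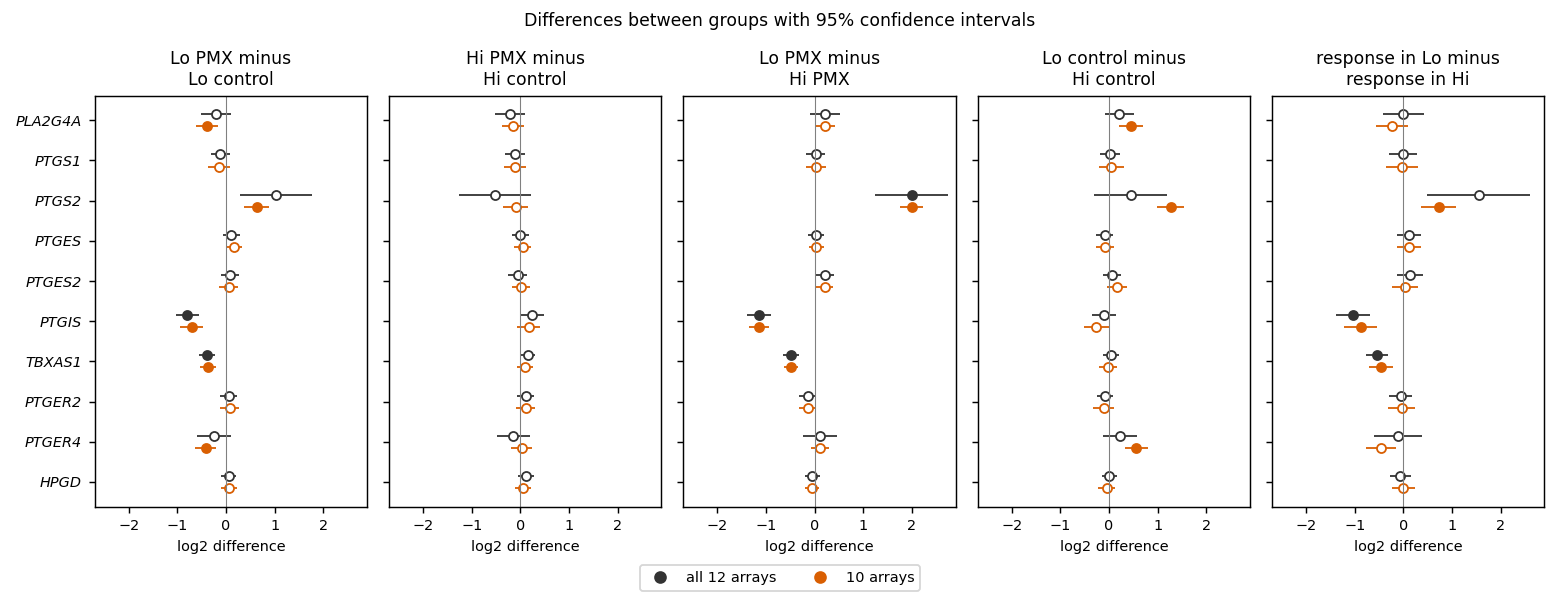
Log2 differences (x axis) of the 10 genes (rows) in the 5 comparisons (panels). Grey points are from all 12 arrays and orange points from the 10 arrays without both controls labelled replicate 3, filled where the gene passed, and lines are 95% confidence intervals. PTGIS and TBXAS1 were lower in Lo PMX cells in both fits, while PTGS2 passed against Lo control cells only with 10 arrays.

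Counted together, 2 of the 10 genes passed between Lo PMX and Lo control cells with all 12 arrays, both lower, while 10.7% of all genes passed, 5.60% higher and 5.14% lower. With 10 arrays 5 passed, PTGS2 higher and PTGIS, TBXAS1, PTGER4 and PLA2G4A lower, against 11.0% of all genes (5.21% higher and 5.74% lower). The groups did not overlap for 4 of the 10 (PTGS2, PTGIS, TBXAS1 and HPGD), against 29.8% of all genes, and for 8 of 10 with 10 arrays, against 39.4%. The members' median difference was -0.03 (all genes 0.02), and -0.05 with 10 arrays (all genes 0.03). With 10 arrays the members that passed lay in both directions.

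Between Hi PMX and Hi control cells limma passed 0 of the 10 genes with either set of arrays, and 0 of them had an unadjusted p under 0.05. Over all genes 0% passed as well, and 1.44% had an unadjusted p under 0.05 with 12 arrays and 1.82% with 10. The groups did not overlap for 2 of 10, PTGS1 and PTGIS, against 5.44% of all genes, and for 2 of 10 with 10 arrays, against 13.2%. Under treatment, 3 of the 10 passed between Lo PMX and Hi PMX cells, PTGS2 higher and PTGIS and TBXAS1 lower, against 22.3% of all genes (11.3% higher and 11.0% lower). With 10 arrays 3 passed, against 27.7% (13.7% higher and 14.0% lower). These shares are near those of all genes. The groups did not overlap for 4 of 10, these 3 and PTGES2, against 37.3% of all genes.

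Between Lo control and Hi control cells limma passed 0 of the 10 genes with 12 arrays, as it did 0% of all genes, of which 2.10% had an unadjusted p under 0.05, and the groups overlapped for all 10 (5.74% of all genes did not overlap). With 10 arrays 3 of the 10 were higher in Lo control cells (PTGS2, PTGER4 and PLA2G4A) and 0 lower, against 7.17% of all genes (3.67% higher and 3.50% lower). The groups did not overlap for 7 of 10, against 48.0% of all genes. The smaller number of controls leaves each of these differences resting on 2 arrays a group. The arrays left out were those lying toward the other folate level, so leaving them out in itself parts the control groups. A p-value or a lack of overlap with 10 arrays does not allow for that choice. The Lo comparisons share the Lo control arrays, so the values of PLA2G4A and PTGER4 above Hi control and above Lo PMX cells are not independent of each other.

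The responses of Lo and Hi cells to pemetrexed were compared in 1 test, as the change in Lo cells minus that in Hi cells. PTGIS differed by -1.04 ± 0.16 (limma adjusted p = 0.00376) and TBXAS1 by -0.54 ± 0.11 (adjusted p = 0.0141), so the response of both genes was lower in Lo cells. They were 2 of the 10 genes, against 4.81% of all genes (2.57% higher and 2.24% lower). PTGS2 differed by 1.55 ± 0.49 with 12 arrays and did not pass (limma adjusted p = 0.0939), and by 0.73 ± 0.17 with 10 arrays, where it passed (adjusted p = 0.0326). With 10 arrays 3 of the 10 passed, against 4.16% of all genes (2.02% higher and 2.14% lower), with PTGIS at -0.88 ± 0.15 (limma adjusted p = 0.00702) and TBXAS1 at -0.46 ± 0.11 (adjusted p = 0.0376). PTGER4, at -0.45 ± 0.14, and PLA2G4A, at -0.23 ± 0.15, did not pass there (limma adjusted p = 0.107 and 0.53).

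**Figure D3:**
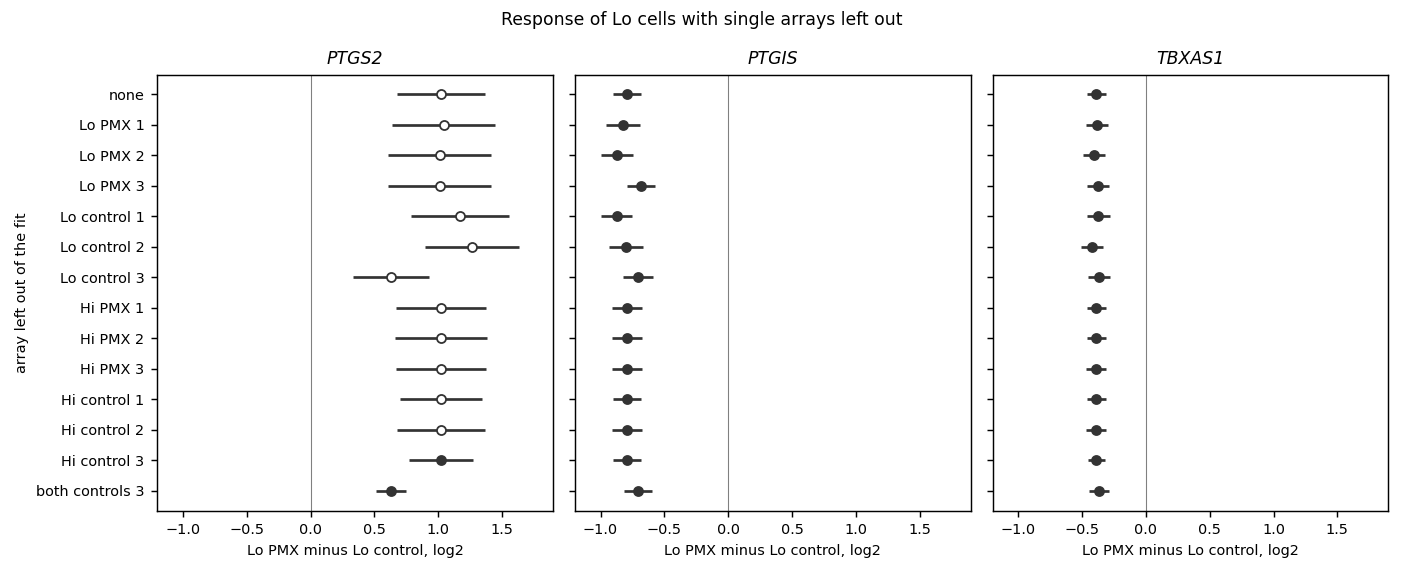
Log2 difference between Lo PMX and Lo control cells (x axis) for PTGS2, PTGIS and TBXAS1 when each array in turn, or both controls labelled replicate 3, is left out of the fit (rows). Bars are standard errors and filled points passed the test. PTGIS stayed between -0.87 and -0.68 and TBXAS1 between -0.42 and -0.37 without single arrays and passed each time, while PTGS2 ran from 0.63 to 1.26 and passed without 1 single array, Hi control replicate 3, and without both controls.

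Other genes of arachidonate and prostanoid metabolism were read from wider lists to place the 10 genes in their pathway. Of 10 other genes that release arachidonate, 1 rose in Lo PMX relative to Lo control cells with 12 arrays, against 5.60% of all genes. This was the diacylglycerol lipase gene DAGLB, at 0.61 ± 0.11 (limma adjusted p = 0.00426). With 10 arrays the phospholipase gene PLA2G4C rose too, by 0.51 ± 0.12. In untreated cells with 10 arrays the monoacylglycerol lipase gene MGLL was 0.77 ± 0.11 higher in Lo control than in Hi control cells (limma adjusted p = 8.94e-04), DAGLB 0.42 ± 0.10 and PLA2G6 0.27 ± 0.08 higher, while PLA2G4C was lower at -0.49 ± 0.13. The release genes that passed thus included members in both directions.

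Of 5 other prostanoid synthase genes 0 passed in limma in Lo cells with 12 arrays (1 at an unadjusted p under 0.05), against 10.7% of all genes, and with 10 arrays AKR1C3, the aldo-keto reductase that makes prostaglandin F2, fell by 0.42 ± 0.10 (limma adjusted p = 0.0150). Of 7 other prostanoid receptor genes 0 passed between Lo PMX and Lo control cells with either set of arrays (1 at an unadjusted p under 0.05 in limma with 12 arrays, 0 with 10). The prostacyclin receptor gene PTGIR stood at 0.00 ± 0.11 and the thromboxane receptor gene TBXA2R at 0.28 ± 0.10 (limma adjusted p = 0.117). Relative to Hi PMX cells, with 10 arrays PTGIR was 0.29 ± 0.07 and the prostaglandin F receptor gene PTGFR 0.30 ± 0.09 higher in Lo PMX cells (limma adjusted p = 0.0119 and 0.0309). Of 6 other genes of degradation and transport 0 passed in Lo cells (1 at an unadjusted p under 0.05 in limma with 12 arrays, 2 with 10), and the exporter gene ABCC4 stood at -0.39 ± 0.13 (limma adjusted p = 0.0681). Over all genes 10.7% passed between Lo PMX and Lo control cells with 12 arrays and 11.0% with 10. An unadjusted p under 0.05 was held by 23.2% and 22.7%, and lists this short can hold so few at these shares. In the list of degradation and transport the reductase gene PTGR2 was 0.44 ± 0.13 higher in Lo PMX than in Hi PMX cells with 12 arrays. It was the 1 gene of the 6 that passed there, against 22.3% of all genes. With 10 arrays 1 was higher, PTGR2, and 1 lower, PTGR3, at -0.24 ± 0.08 (limma adjusted p = 0.0495), against 27.7% of all genes. PTGR1 was 0.29 ± 0.08 higher in Lo control than in Hi control cells with 10 arrays.

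Enzymes that build arachidonate or return it to phospholipids moved in both directions. Of 8 measured, 2 rose and 3 fell in Lo PMX relative to Lo control cells, with 12 and with 10 arrays, while 10.7% and 11.0% of all genes passed. The lysophospholipid acyltransferase LPCAT3, known for placing arachidonate in phospholipids, rose by 0.65 ± 0.09 (limma adjusted p = 5.34e-04) and the elongase gene ELOVL2 by 0.52 ± 0.12. LPCAT2, at -0.58 ± 0.07 (limma adjusted p = 2.92e-04), the elongase gene ELOVL5, at -0.25 ± 0.07, and the desaturase gene FADS2, at -0.26 ± 0.07, fell. Of 12 lipoxygenase, leukotriene and epoxide genes 1 rose and 0 fell, near the share over all genes (10.7%), and this was the epidermal lipoxygenase ALOX12B, at 0.60 ± 0.10. In untreated cells with 10 arrays MGST2, a microsomal glutathione transferase able to make leukotriene C4, was lower in Lo control than in Hi control cells at -0.80 ± 0.10, and ALOX5AP, the 5-lipoxygenase activating protein, was 0.51 ± 0.13 higher.

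Of 20 measured regulators of PTGS2 transcription and mRNA decay, 6 rose and 0 fell in Lo PMX relative to Lo control cells with 12 arrays, against 5.60% of all genes higher and 5.14% lower. These were the AP-1 genes FOS (1.09 ± 0.13) and JUN (0.46 ± 0.07), the C/EBP gene CEBPB (1.07 ± 0.18), the interleukin 1 genes IL1A (1.61 ± 0.32) and IL1B (2.08 ± 0.53), which induce PTGS2 in many cells, and the NF-kB subunit RELA (0.24 ± 0.07). With 10 arrays 5 rose and 0 fell, RELA being the one that did not pass, against 5.21% and 5.74% of all genes. In Lo PMX relative to Hi PMX cells 6 were higher and 2 lower with 12 arrays, against 11.3% and 11.0% of all genes, and 6 were higher and 3 lower with 10, against 13.7% and 14.0%. Those lower, named here after their values were seen, were the transcription factor gene CREB1 (-0.34 ± 0.10) and ZFP36L2 (-0.51 ± 0.13), of the ZFP36 family of mRNA decay factors, and with 10 arrays also ZFP36 itself (-0.35 ± 0.11). In untreated cells with 10 arrays 3 were higher in Lo control than in Hi control cells, IL1B (2.13 ± 0.17), IL1A (1.07 ± 0.09) and the phosphatase gene DUSP1 (0.89 ± 0.14). In these control cells 1 was lower, ZFP36, whose protein speeds the decay of AU-rich mRNAs such as that of PTGS2, at -0.64 ± 0.13 (limma adjusted p = 0.00977), against 3.67% of all genes higher and 3.50% lower. With 12 arrays none of the wider lists had a gene that passed between Lo control and Hi control cells, where 0% of all genes passed.

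**Figure D4:**
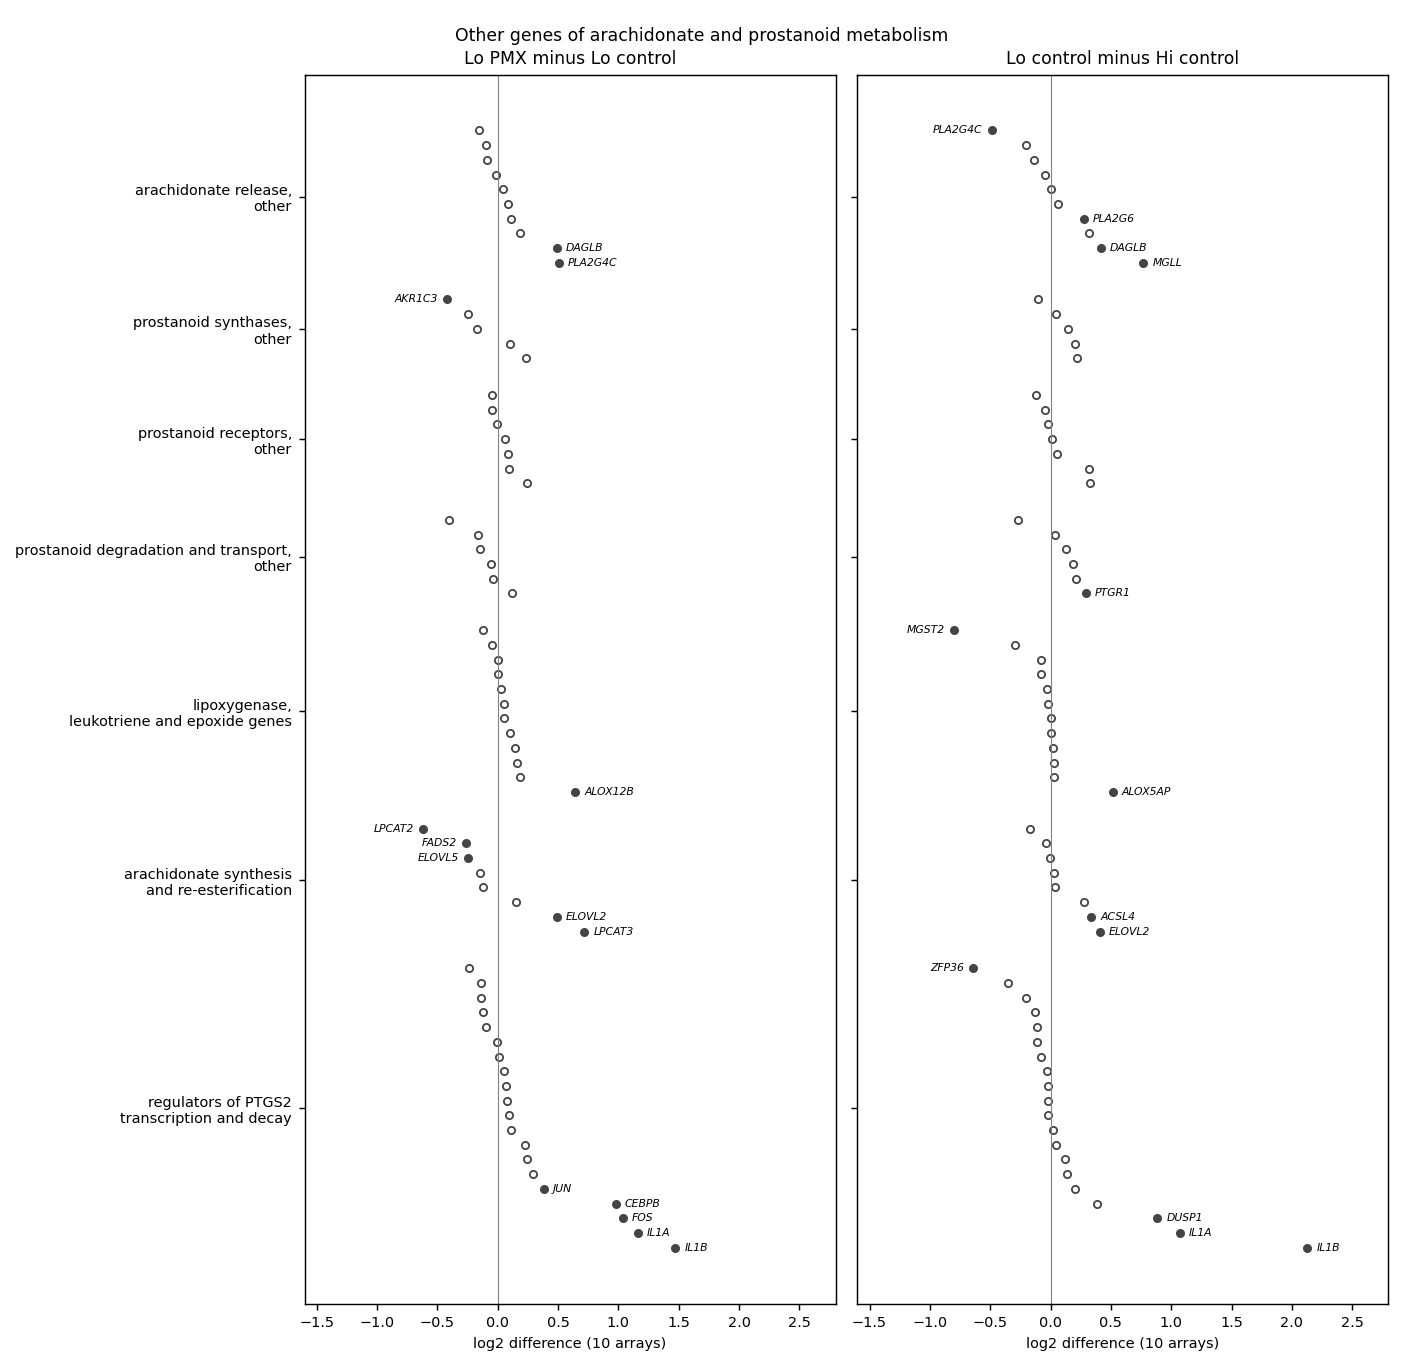
Log2 differences (x axis, 10 arrays) of other genes of arachidonate and prostanoid metabolism and of regulators of PTGS2, grouped by list (y axis) and ordered by size within each list. Each point is a gene, filled and named where it passed the test. The receptor list held 0 filled points in either panel, and IL1B had the largest difference plotted, 1.47 between Lo PMX and Lo control cells and 2.13 between Lo control and Hi control cells.

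The genes whose values over the arrays lay nearest to those of PTGS2 were found by the mean absolute difference of log2 values. Each gene was centred on its own mean and not scaled. A gene with the same order of groups but larger or smaller changes is therefore not near by this measure. Over 12 arrays the 5 nearest were PSTPIP2 (0.0943), CXCL8 (0.104), ADAMTS1 (0.107), PLAT (0.112) and KCNJ2 (0.118), while PTGS2 itself deviated from its mean by 0.808 on average. Over 10 arrays they were PSTPIP2 (0.0926), PLAT (0.105), ADAMTS1 (0.108), MUC13 (0.108) and RDH10 (0.116). PSTPIP2, ADAMTS1 and PLAT were in both sets. None of the other 9 prostanoid genes was in either. Their ranges over the arrays, 0.29 to 1.43 against 2.24 for PTGS2, put them far from it by this measure. Their absence therefore does not show whether they followed PTGS2.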

How the data were processed

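The authors deposited log2 expression values per probe set of a whole-transcript array, which the submitters' processing notes credit to RMA in Partek 6.5. Its settings are not given in the sources used here. Biotin-labelled total RNA had been isolated with an RNeasy kit, per the labels' protocols. Of 33297 probe sets, 19460 carried 1 gene symbol, 1754 carried several and 12083 had none listed. For each gene the brightest probe set with 1 symbol by mean over 12 arrays was used (769 genes had more than 1), which gave 18417 genes, and 19429 identifiers matched RefSeq. No filter or further normalization was applied. One mean per group was fitted by lmFit and eBayes of limma 3.58.1 under R 4.3.3, which left 8 residual degrees of freedom, tests were two-sided, and p-values were adjusted by Benjamini-Hochberg over all genes in each of 5 comparisons. The scripts were tested on simulated data. The number of arrays limits the precision, and p-values measure the spread between replicates of 1 cell line.

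The members, gene lists, tests and alternatives were chosen with earlier results of these data known. All 10 members were named whatever their p. From each other list, up to 6 genes per comparison could be named. They had the smallest p among those that passed in either set of arrays. Outside this rule CREB1, ZFP36L2 and, with 10 arrays, ZFP36 passed between Lo PMX and Hi PMX cells and were named after their values were seen. The genes nearest to PTGS2 were named by their distance. The other genes given with values did not pass or mark cell types. Listed genes without a probe set of 1 symbol were not analysed here. AKR1C3 has close relatives with which its probes may share sequence.

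Whether replicate numbers pair the arrays was checked by correlating deviations from group means across genes. With 12 arrays 11 of 18 same-numbered pairs correlated above 0.1 (-0.656 to 0.514), so the numbers were not taken as pairing. With 10 arrays 13 of 13 did (0.115 to 0.543), where the deviations of 2 controls in a group mirror each other. Hi PMX and Lo PMX arrays, which involve no control, correlated at 0.514, 0.115 and 0.226 for replicates 1, 2 and 3. The main fits hold no replicate term. With 10 arrays, adding it raised the genes that passed from 2018 to 3385 between Lo PMX and Lo control cells. Between Lo PMX and Hi PMX cells they went from 5106 to 6554. The alternatives were leaving out each array or both controls labelled replicate 3, the replicate number as a block, array weights, quantile normalization, leaving out genes with a mean under 5, the mean of a gene's probe sets, and fitting only the arrays of the groups compared.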

Additional observations from a re-analysis of the deposited data

Results flagged for a closer look

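The response to pemetrexed differed between Lo and Hi cells by the test of the difference itself for 3 genes. For PTGIS the response in Lo cells minus that in Hi cells was -1.04 log2 units with 12 arrays, with all 3 Lo PMX arrays below all Lo controls and all 3 Hi PMX arrays above all Hi controls. For TBXAS1 it was -0.54 with 12 arrays. For PTGS2 it was 0.73 without both controls labelled replicate 3, and with 12 arrays it did not pass. Groups of 3 arrays were not tested for single arrays that stand apart.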

How the results depend on the processing

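PTGIS and TBXAS1 kept their direction and passed limma's test in every alternative run between Lo PMX and Lo control cells (-0.87 to -0.64 and -0.42 to -0.37), between Lo PMX and Hi PMX cells and in the difference of responses, as did PTGS2 between Lo PMX and Hi PMX cells (1.88 to 2.10). Between Lo PMX and Lo control cells PTGS2 passed in 4 of 20 alternatives: both controls left out (0.63), Hi control replicate 3 left out (1.02), both left out with the replicate block (0.57) and array weights (0.82). Of the members, 2 passed there with 12 arrays, 5 with 10 arrays, 5 with 10 arrays and the replicate block, and 2 to 3 without single arrays. In the same comparison 1978 genes passed with 12 arrays, 3385 with 10 arrays and the replicate block, and 1170 to 2563 without single arrays, among them 1210 without Lo control replicate 3, 1282 without Lo PMX replicate 1 and 1170 without Lo PMX replicate 3. Against Hi PMX cells 4107 genes passed in Lo PMX cells, and 6554 with 10 arrays and the replicate block (2855 to 4607 without single arrays, with 3 to 4 members). Between Lo control and Hi control cells 0 genes and 0 members passed with 12 arrays and without any single array, 1320 genes and 3 members with 10 arrays, and 2422 genes and 3 members with the replicate block added. The difference of responses passed for 886 genes, for 1738 with 10 arrays and the replicate block, and for 443 to 956 without single arrays: 506 without Hi PMX replicate 2, 539 without Hi PMX replicate 3, 572 without Lo control replicate 3, 568, 584 and 443 without Lo PMX replicates 1, 2 and 3. Members that passed in it numbered 2 without single arrays and 3 with 10 arrays, with or without the replicate block. The replicate block with 10 arrays changed 1 call of a member, PTGES2 between Lo PMX and Hi PMX cells (0.20), and with 12 arrays it changed no count of members. The cause of these shifts was not tested. Where the value of a member passed with 12 arrays or under the alternative, its direction was the same in both, and HPGD, under the dim limit of 5, has no value in that alternative.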
